A study of Mus musculus with 12 samples.

Results

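The genes described here are 10 cyclins and cyclin-dependent kinases (CDKs) chosen by name. They are the D-type cyclin genes Ccnd1, Ccnd2 and Ccnd3, the kinase genes Cdk4 and Cdk6, the cyclin genes Ccne1, Ccna2, Ccnb1 and Ccnb2, and the kinase gene Cdk1. All 10 were found among the 24138 genes of each deposited table, each on a single row that named no other gene, and the authors tested all 10 in each of the 4 comparisons. RNA had been sequenced from cells of the intra-aortic clusters, where the stem and progenitor cells of blood emerge from the wall of the aorta, taken from the aorta-gonad-mesonephros region of C57BL/6 mouse embryos. The sorted cells of every group carried CD31 and CD117 and lacked SSEA-1. The 12 samples formed 4 groups of 3. The G1 groups at the embryonic stages E10.5 and E11.5, named for days of gestation, were mKO2-positive cells of Fucci Red embryos, and the S/G2/M groups at the same ages were mAG-positive cells of Fucci Green embryos. Fucci reporters mark the phases of the cell cycle through reporter proteins that are degraded in other phases, so the sort was made on protein. Reporter strain and phase were the same split in each comparison of phases, and their effects cannot be told apart. The labels give neither the promoter of the reporters nor whether embryos were pooled.

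Cyclins are regulatory subunits that switch on CDKs, and the order in which they appear drives the cell cycle. D-type cyclins respond to growth signals and pair with CDK4 or CDK6 in G1, cyclin E acts with CDK2 at the entry into S phase, cyclin A acts in S and G2, and B-type cyclins act with CDK1 in mitosis. Transcripts of cyclin A, the B-type cyclins and Cdk1 are known to peak late in the cycle, whereas D-type cyclins and their kinases vary less with phase. In blood-forming cells, CDK6 has been linked to the exit of stem cells from quiescence.

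Values are the authors' FPKM (fragments scaled by transcript length and by library size, so that levels of different genes can be compared), with 1 value per gene and group. No column holds a single sample, so no spread between samples, no error of a level and no test of the difference between 2 effects could be computed, and the read depth is unknown. Each group was quantified in 2 of the 4 tables, and the values of a member in these tables differed by at most 1.05-fold. The words rose, fell and changed are kept for q-values under 0.05, adjusted over all genes tested, in the authors' deposited tables. Passed means the same unless another threshold is named with it. Whether the samples of a group were separate litters is not stated in the labels, so the q-values may reflect technical spread. Each group enters 2 comparisons, so the comparisons share samples and are not independent of each other. These were bulk samples, in which fewer cells of a type and less RNA per cell cannot be told apart.

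Of the 10 genes, 4 changed in at least 1 comparison. Cdk1 was higher in S/G2/M than in G1 at E10.5. Between the ages, Ccnd2 and Ccnb2 fell and Cdk6 rose in S/G2/M cells. At E10.5, 1 of the 10 rose in S/G2/M and none fell by the authors' deposited table, where 0.655% of all tested genes changed and 0.193% rose. At an unadjusted p under 0.05, 4 of the 10 were higher, where 6.69% of all genes passed and 2.4% were higher. For the phases at E11.5 none of the 10 had a q under 0.05 in the authors' Cuffdiff test, where 0.701% of all tested genes did. At a q under 0.085, 1 of the 10, Cdk1, passed there, where 0.894% of all genes did. Of the 10, 4 were higher at an unadjusted p under 0.05, where 8.27% of all genes passed and 3.32% were higher. With age in G1 cells none had a q under 0.05 in the same test, where 4.45% of all tested genes did. At a q under 0.085, 1 of the 10, Ccnd2, passed there, where 5.97% of all genes did. It was also the 1 gene with an unadjusted p under 0.05, where 15.4% of all genes passed. With age in S/G2/M cells 3 of the 10 changed, where 4.07% of all tested genes did. Of these, 1 rose and 2 fell, where 2.14% of all genes rose and 1.93% fell. The same 3 passed at an unadjusted p under 0.05, where 13.9% of all genes did. The median log2 fold change of the 10 was 0.38 between phases at E10.5 and 0.68 at E11.5, where that of all tested genes was -0.04 and -0.06. With age it was -0.26 in G1 cells and -0.20 in S/G2/M cells, where that of all tested genes was 0.02 and 0.03.

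**Figure D1:**
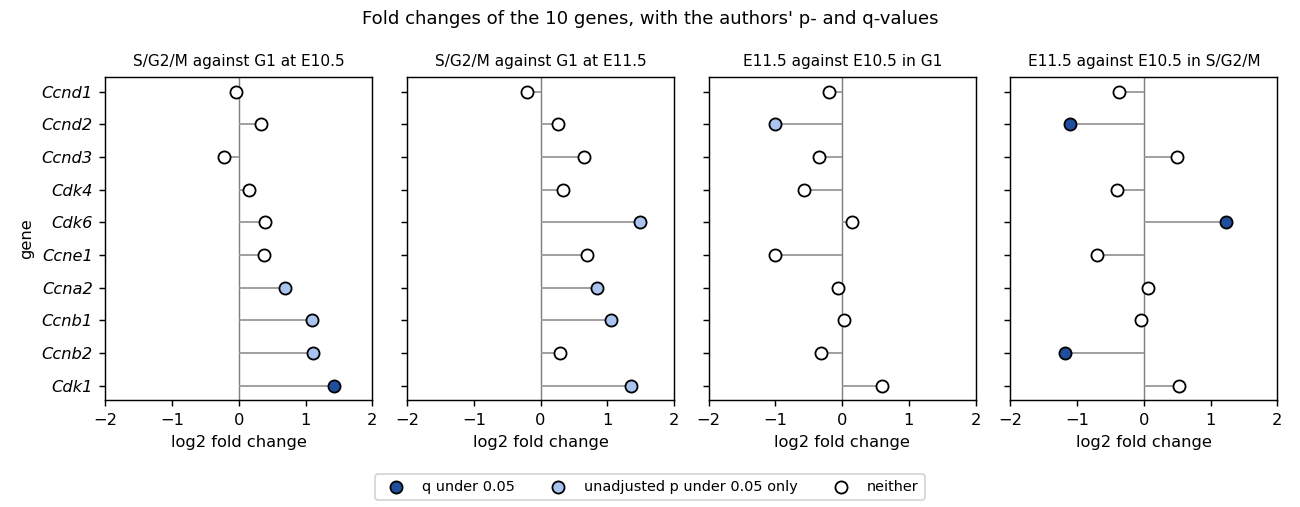
Log2 fold change (horizontal axis) of each of the 10 genes (vertical axis) in the 4 comparisons, with the denominator named second in each panel title. Dark points had a q-value under 0.05 in the authors' deposited table, light blue points an unadjusted p under 0.05 only, and white points neither. Cdk1 passed between phases at E10.5, and Ccnd2, Ccnb2 and Cdk6 passed with age in S/G2/M.

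Among the D-type cyclins, Ccnd2 fell with age in S/G2/M cells, while Ccnd1 and Ccnd3 did not pass in any comparison. The deposited locus of Ccnd2 was chr6:127125709-127212419 (mm10), whereas the gene spans 127125162 to 127152193 in the GENCODE annotation. The positions given for the other members are also deposited loci. The E10.5 levels of Ccnd2 were 102 FPKM (G1) and 128 FPKM (S/G2/M), and its E11.5 levels 47.5 and 57.0 FPKM. Both E11.5 groups were therefore below both E10.5 groups. In S/G2/M cells Ccnd2 fell 2.15-fold with age, from 127.6 to 59.2 FPKM (q = 0.00308 in the authors' deposited table). In G1 cells it had 97.2 and 48.1 FPKM, a 2.02-fold lower level at E11.5 with q = 0.0530 in the authors' deposited table, just outside the threshold of 0.05 and inside the 0.085 at which the authors marked genes as significant. Scaling both ages to 1 median shifted all genes in the G1 comparison by 0.10 on the log2 scale, and relative to it the log2 fold change of Ccnd2 was -1.12 instead of -1.01. Between phases Ccnd2 had log2 fold changes of 0.33 at E10.5 and 0.26 at E11.5, without passing.

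Ccnd1, on chr7:144929931-144939925, was the flattest of the 3 across the groups. At E10.5 it stood at 101 FPKM (G1) and 98.3 FPKM (S/G2/M), and at E11.5 at 83.2 and 72.3 FPKM. Its lowest q in the authors' deposited tables was 0.687, with age in S/G2/M. Ccnd3 had the deposited locus chr17:47505051-47611492, whereas the gene ends at 47599691 in the GENCODE annotation. It stood at 62.2 FPKM (G1) and 53.4 FPKM (S/G2/M) at E10.5, then at 46.0 and 72.2 FPKM at E11.5. Its phase difference thus had opposite signs at the 2 ages (log2 fold changes of -0.22 and 0.65), but neither passed. Summed over the 3 genes, the D-type cyclins reached 265 FPKM (G1) and 279.6 FPKM (S/G2/M) at E10.5, and 177 and 201.5 FPKM at E11.5. Ccnd2 made up 38.4% and 45.8% of this sum in the E10.5 groups and 26.9% and 28.3% in the E11.5 groups. Ccnd3 made up 19.1% in the E10.5 S/G2/M group and 35.8% in the E11.5 one. In these E11.5 S/G2/M cells, Ccnd1 and Ccnd3 stood at nearly the same level and Ccnd2 was lowest.

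Markers of several cell types, those of the clusters among them, also moved with age in the same samples. Of all tested genes, 2.14% rose and 1.93% fell with age in S/G2/M, and 4.45% changed in G1. An unadjusted p under 0.05 was listed for 13.9% of them in S/G2/M and 15.4% in G1. Sums are over all markers found of a list. In S/G2/M cells, where Ccnd2 fell, 12 of 12 mesenchymal markers were lower at E11.5 and 5 passed, with summed levels of 194 and 51.1 FPKM. Of 9 erythroid markers, 3 fell there, and the sum of all 9 was 19748 and 3267 FPKM. The most abundant of them, Hba-x and Hbb-y, did not pass (q of 0.543 and 0.614 in the authors' deposited table). Of 12 macrophage markers 7 rose, with sums of 176 and 655 FPKM, of 12 endothelial markers 4 rose, with 494 and 978 FPKM, and of 12 cluster and progenitor markers 6 rose, with 248 and 599 FPKM. The 10 neuronal markers had sums of 99.9 and 111 FPKM, with none passing the authors' test and 2 at an unadjusted p under 0.05. In G1 cells, 4 of 12 mesenchymal and 4 of 10 neuronal markers fell with age, with sums of 189 and 63.5 FPKM and of 554 and 197 FPKM. There, 11 of 12 macrophage markers rose, from a summed 294 to 2294 FPKM, as did 2 endothelial markers and 3 of 11 tested cluster and progenitor markers. None of the 9 erythroid markers passed in G1, where 2 had an unadjusted p under 0.05. No marker of these 6 lists was at 0 in any group. The part of these cell types in the changes of Ccnd2, Ccnb2 and Cdk6 was not tested.

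Cdk4 was the most abundant of the 10 transcripts in all 4 groups and Cdk6 was far lower, but Cdk6 rose with age in S/G2/M cells. Cdk4 and Cdk6 encode the kinases that D-type cyclins activate. Cdk6, on chr5:3344312-3522225, stood at 19.7 FPKM (G1) and 25.9 FPKM (S/G2/M) at E10.5, then at 20.7 and 58.0 FPKM at E11.5. The E11.5 S/G2/M group stood apart, and in these phase tables the other 3 groups lay between 19.7 and 25.9 FPKM. With age in S/G2/M cells Cdk6 rose 2.34-fold, from 25.6 to 59.9 FPKM (q = 0.0265 in the authors' deposited table). In G1 cells it had 18.9 and 21.0 FPKM at the 2 ages, far from passing (q = 0.909 in the authors' deposited table). Between phases at E11.5 it was 2.80-fold higher in S/G2/M, with p = 0.001 and q = 0.104 in the authors' deposited table, and 1.31-fold higher at E10.5 with q = 0.956. The log2 phase difference of Cdk6 was larger at E11.5 than at E10.5 by 1.09, and this difference was not tested.

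Cdk4, on chr10:127063603-127067282, stood at 446 FPKM (G1) and 494 FPKM (S/G2/M) at E10.5, then at 283 and 357 FPKM at E11.5. It lay above 98.0% of the genes tested in every group. Both E11.5 levels were below both E10.5 levels, but Cdk4 passed in neither age comparison (q of 0.404 in G1 and 0.588 in S/G2/M in the authors' deposited tables). The ratio of Cdk4 to Cdk6 was 22.6 (G1) and 19.0 (S/G2/M) for the E10.5 groups, then 13.7 and 6.16 for the E11.5 groups. Cdk6 therefore made up 4.24%, 4.99%, 6.82% and 14.0% of the summed FPKM of both kinases, in the same order of groups.

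**Figure D2:**
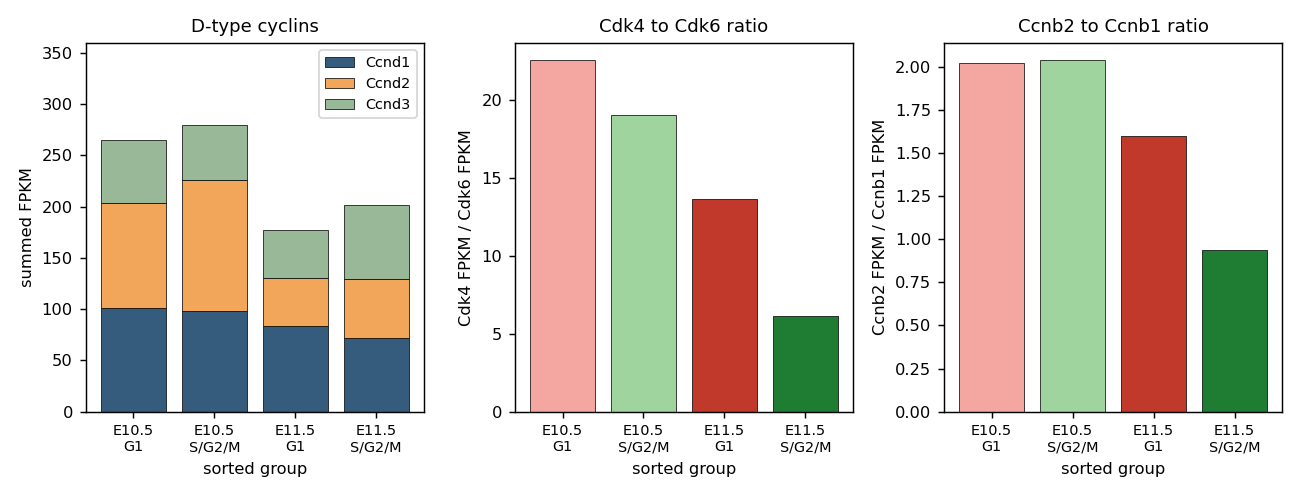
Left, FPKM of Ccnd1, Ccnd2 and Ccnd3 stacked for each sorted group; middle, Cdk4 FPKM divided by Cdk6 FPKM; right, Ccnb2 FPKM divided by Ccnb1 FPKM, all from the authors' group values without error bars because no value per sample exists. The Ccnd2 share of the sum was 45.8% and 28.3% in the S/G2/M groups at E10.5 and E11.5, and both ratios were lowest in S/G2/M at E11.5, at 6.16 and 0.939.

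Ccne1, on chr7:38097984-38107490, encodes the cyclin of S-phase entry and had the lowest level of the 10 in every group. At E10.5 its levels were 10.48 FPKM (G1) and 13.6 FPKM (S/G2/M), and at E11.5 they were 4.91 and 7.99 FPKM. Its level was 2.02-fold lower at E11.5 in G1 and 1.63-fold lower in S/G2/M, with q-values of 0.545 and 0.627 in the authors' deposited tables. It was higher in S/G2/M at both ages, by 1.29-fold and 1.63-fold, without passing. The kinase gene of its partner, Cdk2, stood at 6.00 FPKM (G1) and 12.9 FPKM (S/G2/M) at E10.5 (unadjusted p = 0.0449 and q = 0.717 in the authors' deposited table), then at 10.1 and 11.51 FPKM at E11.5. The other E-type cyclin, Ccne2, ranged from 5.45 to 7.57 FPKM.

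From the highest level to the lowest, the order in G1 cells at E10.5 was Cdk4, Ccnd2, Ccnd1, Ccna2, Ccnb2, Ccnd3, Ccnb1, Cdk6, Cdk1 and Ccne1. In the E11.5 S/G2/M group it was Cdk4, Ccna2, Ccnd1, Ccnd3, Ccnb1, Ccnb2, Cdk6, Cdk1, Ccnd2 and Ccne1, where the values from Ccnb2 to Ccnd2 lay between 57.0 and 59.9 FPKM. Without a spread between samples, neighbours in these orders cannot be ranked.

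**Figure D3:**
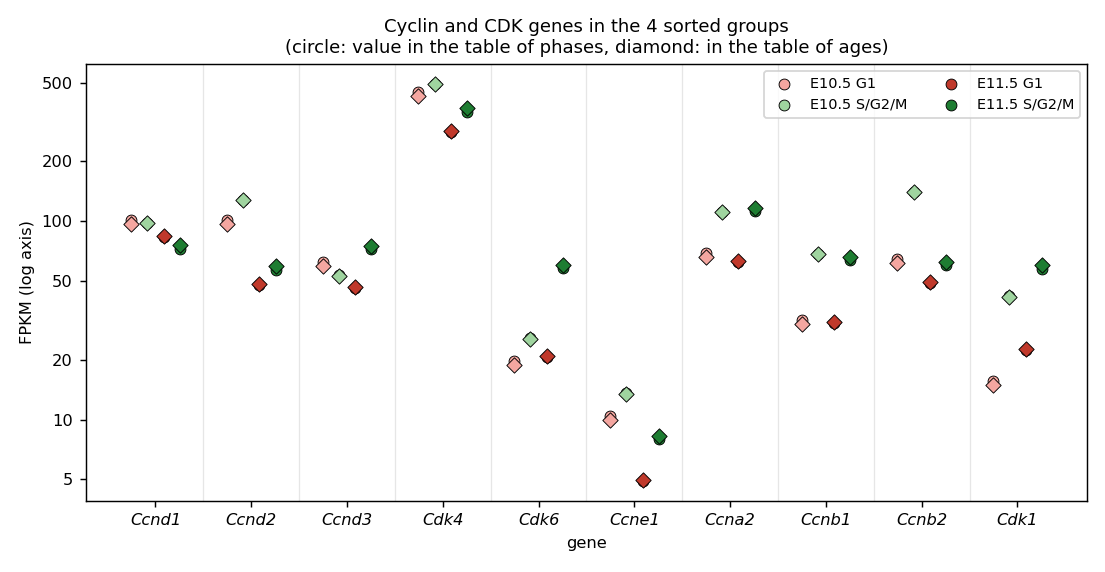
FPKM on a log axis for each gene (horizontal axis) in the 4 sorted groups, with circles for the table that compares phases and diamonds for the table that compares ages. Cdk4 lies above and Ccne1 below the other 8 genes in every group. Ccna2, Ccnb1, Cdk1 and Cdk6 lie higher in both S/G2/M groups than in both G1 groups. Ccnd1, Ccnd2, Cdk4 and Ccne1 lie lower in both E11.5 groups than in both E10.5 groups, and of these Ccnd2 alone passed with age, in S/G2/M.

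Promoter sequences are shown for the 3 mitotic members found in the reference table, all with an unadjusted p under 0.05 between phases at E10.5, and for Cdk6, which rose with age. Genes of late cell cycle phases are known to carry CCAAT boxes, bound by NF-Y, and a cell cycle homology region (CHR), bound by the complexes that repress them in G1 and activate them in G2. RefSeq promoters (GRCm38.p6, the build also called mm10) were matched for 7 of the 10 genes; Ccna2, Ccnd1 and Ccnd2 were not matched. Each line gives the 250 bases before the transcript start, 5′ to 3′ on the gene's strand, and capitals mark CCAAT boxes (CCAAT, or ATTGG on the other strand), the CHR (TTTGAA, or TTCAAA on the other strand) and its variant TTTAAA.
Cdk1: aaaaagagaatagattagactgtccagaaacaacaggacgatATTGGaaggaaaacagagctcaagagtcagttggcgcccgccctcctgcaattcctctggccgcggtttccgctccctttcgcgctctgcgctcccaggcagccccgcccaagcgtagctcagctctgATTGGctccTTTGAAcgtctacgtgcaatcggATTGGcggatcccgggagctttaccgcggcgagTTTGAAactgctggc
Ccnb1: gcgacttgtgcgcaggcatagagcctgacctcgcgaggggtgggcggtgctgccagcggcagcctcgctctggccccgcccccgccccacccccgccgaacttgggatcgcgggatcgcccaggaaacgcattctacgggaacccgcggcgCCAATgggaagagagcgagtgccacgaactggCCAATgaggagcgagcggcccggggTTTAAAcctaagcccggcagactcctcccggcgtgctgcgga
Ccnb2: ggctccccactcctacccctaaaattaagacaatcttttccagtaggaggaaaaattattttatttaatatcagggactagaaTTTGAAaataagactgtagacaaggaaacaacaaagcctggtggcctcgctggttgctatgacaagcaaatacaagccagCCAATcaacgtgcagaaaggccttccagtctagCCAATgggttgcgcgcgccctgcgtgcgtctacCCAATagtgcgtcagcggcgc
Cdk6: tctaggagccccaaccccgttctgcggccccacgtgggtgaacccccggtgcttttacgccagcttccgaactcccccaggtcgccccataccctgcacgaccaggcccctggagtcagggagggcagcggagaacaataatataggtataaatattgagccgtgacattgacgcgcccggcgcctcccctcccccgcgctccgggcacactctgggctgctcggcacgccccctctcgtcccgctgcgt
The Cdk1 window (chr10:69352913-69353162, minus strand) held 3 CCAAT boxes and 2 CHR words, the latter starting 71 and 15 bases before the transcript start. The Ccnb1 window (chr13:100786487-100786736, minus strand) held 2 CCAAT boxes, starting 99 and 67 bases before the start, and TTTAAA 42 bases before it. The Ccnb2 window (chr9:70421555-70421804, minus strand) held 3 CCAAT boxes and 1 CHR word 167 bases before the start, and another began at base 5 of the transcript, in the 50 bases after the start that were searched but are not printed. The Cdk6 window (chr5:3343643-3343892, plus strand) held none of these words. The RefSeq start of Cdk6 lay 419 bases before that of the deposited gene model. The windows of Cdk4 and Ccnd3 also held none, and that of Ccne1 held TTTAAA alone. Of 32851 RefSeq promoters of the same 300 bases, 37.4% held a CCAAT box and 11.7% at least 2, 17.9% the CHR word and 13.2% TTTAAA, and 3.13% held at least 2 CCAAT boxes with TTTGAA or TTTAAA. A match of letters is a description and not evidence of binding.

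Ccna2, the B-type cyclins and Cdk1 had higher values in S/G2/M than in G1 at both ages, and among them Cdk1 passed at E10.5. Ccnd2, Ccne1, Cdk4 and Cdk6 also had higher values in S/G2/M at both ages, without passing. Of the 10 genes, 8 were higher at E10.5 and 9 at E11.5, where 6116 of 12984 and 5714 of 12414 tested genes were. Cdk1, on chr10:69336635-69352912, encodes the kinase that drives entry into mitosis. Its E10.5 levels were 15.6 FPKM (G1) and 42.0 FPKM (S/G2/M), and its E11.5 levels 22.4 and 57.6 FPKM. Both S/G2/M groups thus lay above both G1 groups. It rose 2.69-fold in S/G2/M at E10.5 (q = 0.0256 in the authors' deposited table). At E11.5 it was 2.56-fold higher, with p = 0.00055 and q = 0.0650 in the authors' deposited table, inside the 0.085 used by the authors and outside 0.05. In the table of the same E11.5 groups in the other order, its q was 0.0527. Cdk1 was also 1.52-fold higher at E11.5 in G1 and 1.44-fold higher in S/G2/M, with q-values of 0.534 and 0.463 in the authors' deposited tables.

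The B-type cyclins, which activate CDK1 in mitosis, differed in their values with age. Ccnb1, on chr13:100778739-100786486, stood at 31.96 FPKM (G1) and 68.6 FPKM (S/G2/M) at E10.5, then at 30.6 and 63.8 FPKM at E11.5, nearly the same at both ages. It was 2.15-fold and 2.08-fold higher in S/G2/M, with unadjusted p of 0.00315 and 0.00625 and q-values of 0.235 and 0.274 in the authors' deposited tables. Ccnb2, on chr9:70407689-70421554, stood at 64.6 FPKM (G1) and 139.9 FPKM (S/G2/M) at E10.5, then at 49.01 and 59.9 FPKM at E11.5. The E10.5 S/G2/M group was highest. The E11.5 S/G2/M group lay below the E10.5 G1 group in these phase tables. In the age tables their order was reversed, at 62.1 and 61.6 FPKM. With age in S/G2/M cells Ccnb2 fell 2.26-fold, from 140.1 to 62.1 FPKM (q = 0.0239 in the authors' deposited table), while Ccnb1 was at 68.1 and 66.3 FPKM (q = 0.977 in the same table). Between phases Ccnb2 was 2.17-fold higher in S/G2/M at E10.5 (p = 0.00075 and q = 0.0893 in the authors' deposited table, and q = 0.0827 in their table of the other order) and 1.22-fold higher at E11.5 (q = 0.896). Its log2 phase difference at E11.5 minus that at E10.5 was -0.82, which was not tested. The ratio of Ccnb2 to Ccnb1 was 2.02 and 2.04 in the E10.5 groups, but 1.60 (G1) and 0.939 (S/G2/M) in the E11.5 groups.

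The deposited locus of Ccna2 was chr3:36552606-36571996, whereas the gene spans 36564865 to 36572150 in the GENCODE annotation. Ccna2 encodes cyclin A of S and G2 phase and had similar values at both ages. At E10.5 its levels were 69.3 FPKM (G1) and 111.9 FPKM (S/G2/M), and at E11.5 they were 62.3 and 112.02 FPKM. It was 1.61-fold and 1.80-fold higher in S/G2/M, with unadjusted p of 0.0168 and 0.0225 in the authors' deposited tables, and did not pass at either age. With age its log2 fold changes were -0.07 in G1 and 0.07 in S/G2/M. Over the 10 genes, the log2 phase difference at E11.5 minus that at E10.5 was 1.09 for Cdk6, 0.87 for Ccnd3 and -0.82 for Ccnb2, and lay between -0.16 (Ccnd1) and 0.33 (Ccne1) for the other 7.

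At E10.5, where Cdk1 rose, neuronal markers moved the opposite way. Of these 10 markers 8 fell in S/G2/M, with levels summed over the list of 579 FPKM (G1) and 99.8 FPKM (S/G2/M). Of all tested genes, 0.655% changed between phases at E10.5 and 0.701% at E11.5. An unadjusted p under 0.05 was listed for 6.69% and 8.27% of them. None of the other marker lists had a member that passed the authors' test at E10.5, and an unadjusted p under 0.05 was listed for 3 of 11 macrophage markers, 2 endothelial markers, 2 cluster and progenitor markers and 0 mesenchymal and erythroid markers. At E11.5, 7 of 12 macrophage markers and 3 of 9 erythroid markers fell in S/G2/M, with sums of 2267 and 627 FPKM and of 12201 and 3106 FPKM. No neuronal, endothelial, mesenchymal or cluster marker passed there, and 4, 0, 0 and 4 of them had an unadjusted p under 0.05. Epithelial and germ cell markers passed in none of the 4 comparisons, with 1 at an unadjusted p under 0.05 in all, and sums of 5.77 to 28.0 FPKM, and Ddx4 and Dppa5a were listed at 0 in some groups. The part of these cells in the phase differences was not tested. Of the genes behind the sorted surface markers, Pecam1 (CD31) was at 29.7 to 113 FPKM and Kit (CD117) at 12.6 to 30.0 FPKM. Fut4 encodes an enzyme that makes SSEA-1, the marker the cells were to lack, and was at 1.86 to 4.17 FPKM. With age Pecam1 rose 2.96-fold in G1 (q = 0.00861) and 2.47-fold in S/G2/M (q = 0.00971 in the authors' deposited tables).

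Partners and regulators of the mitotic and S-phase CDKs were followed in a list of 24 other genes, 22 of them tested. In S/G2/M, Plk1, a mitotic kinase, was the single member that rose at each age and none fell. At each age 7 were higher at an unadjusted p under 0.05. Of all tested genes, 0.193% rose at E10.5. At E11.5, 17 of 12414 rose, and 0.701% changed in either direction. At an unadjusted p under 0.05, 2.4% and 3.32% of all genes were higher. The list median was 0.73 at E10.5 and 0.78 at E11.5, beside -0.04 and -0.06 for all tested genes. Plk1 had 17.9 FPKM (G1) and 76.1 FPKM (S/G2/M) at E10.5 (q = 0.0101), then 26.8 and 95.8 FPKM at E11.5 (q = 0.0102 in the authors' deposited tables). Cks2, a small subunit that binds CDK1, went from 36.1 to 102 FPKM at E10.5, and from 34.1 to 93.4 FPKM at E11.5, without passing (q of 0.108 and 0.302 in the authors' deposited tables). Its paralogue Cks1b was more abundant, at 259.95 FPKM (G1) and 359 FPKM (S/G2/M) in the E10.5 groups, then 186 and 337 FPKM in the E11.5 groups. Cdc20, which directs the destruction of B-type cyclins, went from 33.9 to 55.5 FPKM at E10.5 and from 25.6 to 52.9 FPKM at E11.5, without passing.

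The phosphatases and the kinase that set CDK1 activity had levels under that of Ccna2 in every group. Cdc25a, a phosphatase that activates CDKs, ranged from 16.3 to 20.8 FPKM, Cdc25b from 2.08 to 4.46 FPKM and Cdc25c from 9.24 to 16.4 FPKM. Wee1, the kinase that inhibits CDK1, went from 15.3 to 22.2 FPKM at E10.5 and from 13.4 to 25.1 FPKM at E11.5 (unadjusted p = 0.0337 and q = 0.537 for the latter in the authors' deposited table). Foxm1 and Mybl2 encode transcription factors that activate late cell cycle genes. With age in G1 cells Foxm1 rose 2.58-fold, from 10.9 to 28.1 FPKM (q = 0.0369 in the authors' deposited table), as the single member of the list to pass, where 4.45% of all tested genes changed. There 3 of the 22 had an unadjusted p under 0.05, where 15.4% of all genes did, and the list median was -0.02, so neither count stood out from the background. Mybl2 had 8.55 and 11.9 FPKM there. With age in S/G2/M cells no member of the list passed the authors' test and 0 had an unadjusted p under 0.05. Of all tested genes, 4.07% changed there and 13.9% had such a p. The list median was 0.08. Cks1b was at 355.2 and 351 FPKM, Cks2 at 101 and 97.1 FPKM and Plk1 at 75.3 and 99.8 FPKM.

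In a list of 25 G1/S partners, inhibitors and targets, 23 were tested. Cdkn1c, an inhibitor of cyclin-CDK complexes, was the member that passed in 2 comparisons. It fell 2.23-fold in S/G2/M at E10.5 (q = 0.0101) and 2.74-fold with age in G1, from 336 to 123 FPKM (q = 0.00273 in the authors' deposited tables). As the single called member of 23, it stood beside 0.655% and 4.45% of all tested genes changed in these comparisons. No member passed the authors' test between phases at E11.5 or with age in S/G2/M, where 1 and 2 had an unadjusted p under 0.05. Of all tested genes, 0.701% and 4.07% changed in these comparisons, and 8.27% and 13.9% had such a p. The most abundant members there were Cdkn1c, with 121 and 94.5 FPKM between phases and 157 and 99.1 FPKM between ages, and Skp2, part of the ubiquitin ligase for CDK inhibitors, with 53.9 and 57.8 FPKM between phases and 87.7 and 60.2 FPKM between ages. The list medians were 0.10, 0.07, -0.09 and -0.09 for the phases at E10.5 and E11.5 and for age in G1 and S/G2/M.

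Cyclins and CDKs that act in transcription or outside the cell cycle made up a list of 27 genes, of which 25 or 26 were tested. Cdk19, a kinase of the Mediator complex, rose 2.73-fold with age in S/G2/M cells, from 4.48 to 12.2 FPKM (q = 0.0292 in the authors' deposited table). As 1 of 26, it stood beside 4.07% of all tested genes changed there. No other member passed in any comparison, and between phases 0 members reached 0.05 unadjusted in the authors' deposited tables. Of all tested genes, 6.69% reached it between phases at E10.5 and 8.27% at E11.5. Ccni, the most abundant of them, ranged from 91.5 to 112 FPKM over the groups. The list medians were -0.02, -0.09, 0.10 and -0.03 in the same order of comparisons.

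**Figure D4:**
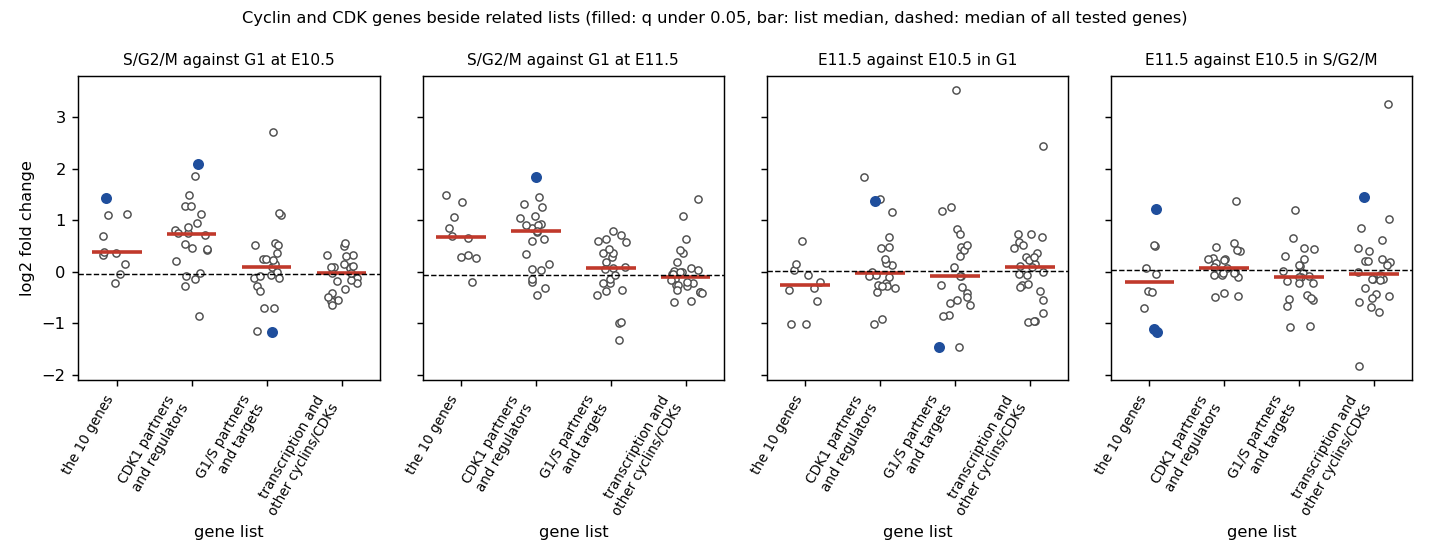
Log2 fold change (vertical axis) of the 10 genes and of the tested members of the 3 related lists (horizontal axis) in the 4 comparisons; each point is a gene, filled where q was under 0.05 in the authors' deposited table, red bars are list medians and the dashed line is the median of all tested genes. Between phases the medians of the 10 genes (0.38 and 0.68) and of the CDK1 partners (0.73 and 0.78) lay above the dashed line (-0.04 and -0.06). That of the G1/S list also lay above it, at 0.10 and 0.07, and that of the transcription list near it, at -0.02 and -0.09.

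The genes whose pattern over the 4 groups was most like that of Cdk1 were sought among 6860 genes of at least 5 FPKM in every group, by the Euclidean distance of log2 values centred over the groups. They were Ube2c, Kif4, Aurka, Kif11 and Hist1h1c, at distances of 0.0964, 0.141, 0.148, 0.200 and 0.240. Aurka, for example, stood at 18.0 FPKM (G1) and 44.2 FPKM (S/G2/M) at E10.5, then at 23.9 and 60.6 FPKM at E11.5. For Ccnd1 they were Rfc5, Dnajc8, Cnn3, Elavl1 and Zfp638, at 0.0227, 0.0340, 0.0393, 0.0431 and 0.0537. These distances rest on 4 values per gene from the same libraries.

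Some members overlap other genes in the GENCODE annotation of GRCm38, and the sources used here do not give whether reads were assigned by strand. The gene spans of Ccna2 and Exosc9 share 863 bases, those of Ccnd3 and Bysl 361, those of Cdk4 and Tspan31 641, those of Ccnd1 and LTO1 1771, and those of Ccnd2 and the antisense genes 9330179D12Rik and Gm43126 2805 and 994. The deposited loci of Ccna2 and Ccnd3 reach over Exosc9 and Bysl, and that of Ccnd2 over 9330179D12Rik. The partners had 12.1 to 21.8 FPKM (Exosc9), 16.2 to 22.5 FPKM (Bysl), 54.0 to 87.4 FPKM (Tspan31) and 0.151 to 1.70 FPKM (9330179D12Rik). Antisense genes also lie within Cdk6. The values of these members are uncertain to that extent.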

How the data were processed

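RNA from 12 samples in 4 groups of 3 was analysed through 6 gene tables. The submitters' processing notes list mm10 as the build and Cuffdiff, TopHat and CASAVA 1.4 as tools, without their roles, whereas the labels' protocols name bowtie 0.12.2 and mm8. All 10 deposited loci overlapped the gene of the same symbol in the GRCm38 annotation, so coordinates are given as mm10, counted from 1. Per the file headers, the authors deposited 1 FPKM value per gene and group, and the p-value and q-value of their test. In them, G2 stands for the S/G2/M group. Count tests had been planned if single samples had values; since they do not, the authors' q-values were used. Fold changes are ratios of FPKM without a pseudocount. Where a symbol had several rows, the row of highest value was kept. All members, the direct partners and the passed members of the 3 related lists are named by rule, or the most abundant where none passed, and not all are printed. Members, lists and the 7 marker lists were chosen with earlier results of these data known. Pattern likeness used the geometric mean of the 2 tables that hold a group. Calculations were tested on simulated data. The alternatives were thresholds of 0.01 and 0.085, at least 5 FPKM, a log2 fold change of at least 1, a pseudocount of 1 FPKM, median scaling, the tables in the other order, and group values from the crossed tables. The software was pandas 2.3.3, numpy 2.4.6 and matplotlib 3.10.9 in Python 3.11.15.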

Additional observations from a re-analysis of the deposited data

How the results depend on the processing

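The number of members called depended on the q-value threshold in the authors' deposited tables. At 0.01, 0 members rose between phases at E10.5, and with age in S/G2/M 0 rose and 1 fell, namely Ccnd2. At 0.085, 1 member, Cdk1, also rose between phases at E11.5, and 1, Ccnd2, also fell with age in G1. Requiring 5 FPKM or a log2 fold change of at least 1, or reading the phase tables in the other order, left the counts at 0.05 as they were. At 0.085, Ccnb2 would also pass between phases at E10.5 in the authors' deposited table of the other order (q = 0.0827), but not in the main one (q = 0.0893). Of 140 log2 fold changes of single members under an alternative, 4 took the other sign, all of them of uncalled values under 0.1 in size (Ccnd1 between phases at E10.5 with values from the crossed tables at 0.01, Ccnb1 with age in G1 at -0.08 under median scaling and -0.06 with the crossed tables, Ccna2 with age in S/G2/M at -0.02 under median scaling), and the largest move was 0.13. No paired analysis was possible because the tables hold no column for a single sample, and for the same reason leaving out replicates was not run. The unknown depth leaves the precision of low genes such as Ccne1 unknown.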
